A study of Mus musculus with 2 samples.

Results

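The genes described here are the chemokine genes Cxcl9, Cxcl10 and Cxcl16 and the receptor genes Cxcr3 and Cxcr6. They were chosen by symbol, 5 of the 32285 genes measured, with earlier results of these data known. They were read in 2 single-cell RNA libraries of immune cells from mouse tumours, named Arg and Control. BALB/c mice aged 5 weeks were given either a normal diet (Control) or a diet of equal calories from which arginine had been removed (Arg). Feeding started 1 week ahead of subcutaneous inoculation with CT26, a colorectal carcinoma line of the mouse, and the tumours were collected on day 20. The label of the Arg library names no diet, so the design text was used to assign it to the arginine-deficient arm. The tumour cells were transplanted into mice with an intact immune system, CD45-positive cells were enriched on beads for both libraries, and the number of mice behind each library was not given in the sources used here. With 1 library per diet no test was possible, every comparison below is between these libraries, and all intervals are 95% intervals that cover counting error only.

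As background, CXCL9 and CXCL10 are small secreted chemokines that macrophages, monocytes and dendritic cells make when interferon-gamma reaches them, and CXCL10 also answers to type I interferon. Both bind CXCR3, a G protein-coupled receptor of activated CD8 T cells, type 1 helper T cells and NK cells, and guide these cells into inflamed tissue and tumours. CXCL16 is made as a membrane-bound protein that the proteases ADAM10 and ADAM17 can release, and its receptor CXCR6 marks effector and tissue-resident T cells. Cxcl11, the gene of another CXCR3 ligand, is listed as a polymorphic pseudogene in the GENCODE M21 annotation. It was not among the genes measured, so whether these cells held its RNA could not be read.

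On GRCm38, Cxcl9 lies at chr5:92321347-92328079 and Cxcl10 next to it at chr5:92346638-92348889, both on the minus strand. Cxcl10 sits inside Art3, which is read from the other strand. Cxcl16 is at chr11:70453983-70459984 on the minus strand and overlaps Zmynd15 on the plus strand. Cxcr3 is at chrX:101731535-101734269 on the minus strand. Cxcr6 is at chr9:123806475-123811760 on the plus strand, inside Fyco1, which is on the minus strand. Whether strand was used in counting was not stated. The overlapping partners had counts of their own: in macrophages Art3 reached 4.87 CPM (a gene's UMI count scaled to the total UMIs of the class) in the Arg and 5.06 in the Control library, and Zmynd15 26.2 and 22.3, while in CD8 T cells Fyco1 reached 66.3 and 55.7. In classes with little Cxcr6, Fyco1 was the higher of the pair, with 57.1 and 41.7 CPM in plasmacytoid dendritic cells, 33.4 and 30.0 in cDC1 and 14.3 and 13.2 in macrophages.

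The 250 bases before the start of each gene are shown for the neighbours Cxcl9 and Cxcl10, because both were higher in Arg macrophages and monocytes. The sequences are from RefSeq on GRCm38.p6, minus strand, at chr5:92328080-92328329 for Cxcl9 and chr5:92348890-92349139 for Cxcl10, written 5′ to 3′. Capitals mark matches to an interferon-stimulated response element core (ISRE, GAAA and GAAA with 2 bases between them) or an NF-kB core (GGGNNNTCC), searched on both strands.
Cxcl9: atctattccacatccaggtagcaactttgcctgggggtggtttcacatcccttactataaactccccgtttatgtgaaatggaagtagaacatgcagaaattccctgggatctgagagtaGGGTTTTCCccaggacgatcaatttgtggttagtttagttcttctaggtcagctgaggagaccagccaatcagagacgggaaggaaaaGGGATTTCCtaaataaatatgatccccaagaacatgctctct
Cxcl10: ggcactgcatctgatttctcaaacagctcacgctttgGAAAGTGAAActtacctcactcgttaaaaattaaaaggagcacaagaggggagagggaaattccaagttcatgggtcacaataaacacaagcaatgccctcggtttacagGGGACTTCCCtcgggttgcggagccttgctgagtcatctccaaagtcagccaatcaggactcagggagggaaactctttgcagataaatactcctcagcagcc
The Cxcl9 window held 2 NF-kB cores, GGGTTTTCC from 130 to 122 and GGGATTTCC from 42 to 34 bases before the start, and no ISRE core. The Cxcl10 window held 1 ISRE core, GAAAGTGAAA, from 213 to 204 bases before the start. It also held an NF-kB core read on either strand, GGGACTTCC from 103 to 95 and, overlapping it, GGACTTCCC from 102 to 94. Neither window held the interferon-gamma-activated site GAS in the form TTCNNNGAA or the T-box sequence AGGTGTGA, and the Cxcr3 and Cxcr6 windows held none of the 4 motifs. Among 32851 promoter windows of this length, 2.98% held the ISRE core, 15.2% the NF-kB core, 7.02% the GAS form and 1.12% the T-box sequence. Promoter windows were found for 4 of the 5 genes, with none for Cxcl16. A match describes letters in a window, not a bound site.

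The Arg library had 155927693 UMIs (unique molecular identifiers, each counting 1 captured RNA molecule) over 14540 barcodes, and the Control library had 191505551 over 14343 barcodes. After filters on mitochondrial share and doublets, 12991 and 12800 cells were kept, with medians of 8294 and 10021 UMIs. The libraries shared 44 barcodes, of which 40 were kept in both. Clusters were made without the members and named from marker genes, and a class name such as CD8 T means CD8 T-like. Ptprc, the CD45 gene, was found in 91.8% to 99.6% of cells in the monocyte, macrophage, conventional and plasmacytoid dendritic, CD8 T, CD4 T, regulatory T and NK classes. It was found in 34.7% and 25.9% of the fibroblast class and in 40.2% and 33.1% of cluster 5, which matched no class and was led by Hmga2, Rhox5 and Lgals7, so the sorted cells held some cells with little CD45 RNA.

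Cxcl9 was a gene of macrophages, monocytes and dendritic cells, and its level was higher in the Arg library in almost every class. Macrophages had the highest level, 1497 CPM (1479 to 1516) in the Arg and 753 (745 to 761) in the Control library. Monocytes followed with 1043 and 536 CPM. Conventional type 2 dendritic cells (cDC2), which present antigen mainly to CD4 T cells, had 600 and 404 CPM, and cDC1, the cross-presenting type, had 414 and 359. In the Arg library the fibroblast class (594 CPM) could not be ordered against cDC2 within the counting intervals, while in the Control library it was lower, at 221. In the Arg library 93.8% of the fibroblast Cxcl9 UMIs came from the top 10% of 72 cells, and 1 cell held 308 of 915. Mature dendritic cells had 223 and 127 CPM and neutrophils 210 and 103, and the intervals of these classes overlapped in both libraries. Mast cells had 134 and 51.6 CPM. B cells had 175 and 13.7 CPM, but in the Arg library 97.8% of their Cxcl9 UMIs came from the top 10% of 62 cells.

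T and NK cells held Cxcl9 at levels that cannot be told from free RNA. The class values were 26.6 and 13.8 CPM in CD8 T cells, 38.7 and 15.8 in CD4 T cells, 22.2 and 6.18 in regulatory T cells and 26.6 and 9.49 in NK cells. Plasmacytoid dendritic cells had 25.2 and 24.6 CPM, and the few gamma-delta T cells 14.1 and 17.9. Free RNA from 1 source keeps its genes in 1 ratio, so Cxcl9 was set against Lyz2, the lysozyme gene of macrophages and monocytes. Free RNA itself was not measured, and the ratio over all cells stands in for it. Cxcl9 UMIs per Lyz2 UMI were 0.121 and 0.0917 over all cells, 0.111 and 0.0951 in CD8 T cells, 0.104 and 0.0529 in NK cells and 0.0871 and 0.0323 in regulatory T cells. No lymphocyte class named here held more Cxcl9 per Lyz2 UMI than all cells together, apart from CD8 T cells of the Control library, which were close.

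Cxcl10 was spread over more cell types. Its highest level was in cluster 14, left unnamed because its monocyte and macrophage scores were close and led by the interferon-stimulated genes Rsad2, Ifit2 and Cmpk2, with 2734 CPM in the Arg and 2488 in the Control library. Cxcl10 was among the leading genes of that cluster although it was left out of the clustering. Among the named classes, neutrophils (819 CPM, interval 749 to 894), macrophages (793, interval 779 to 806) and monocytes (754) were highest in the Arg library, and neutrophils could not be ordered against the other 2 within their intervals. In the Control library, leaving aside 9 gamma-delta T cells, the order was different: cDC2 had 608 CPM, macrophages 484, monocytes 452, fibroblasts 345 and neutrophils 321. In the Arg library cDC2 had 435 CPM and fibroblasts 393. By CPM cDC2 stood above macrophages in the Control library and below them in the Arg library, but in the Control library 80.2% of the cDC2 Cxcl10 UMIs came from the top 10% of cells, and the shares of cells with a UMI at 2000 UMIs per cell (23.8% of cDC2, 28.3% of macrophages) had the other order.

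Cxcl10 was also found in lymphocytes, in another proportion to Lyz2 than over all cells. Regulatory T cells had 196 and 272 CPM, NK cells 77.4 and 131, CD4 T cells 53.6 and 59.9 and CD8 T cells 45.1 and 54.5. Cxcl10 UMIs per Lyz2 UMI were 0.770 and 1.42 in regulatory T cells, 0.303 and 0.731 in NK cells and 0.188 and 0.377 in CD8 T cells, against 0.1 and 0.0974 over all cells. Remaining classes were lower or small: cDC1 had 106 and 135 CPM, mature dendritic cells 119 and 117, plasmacytoid dendritic cells 37.5 and 14.4, mast cells 66.8 and 19.8, B cells 253 and 61.6, and gamma-delta T cells, with 22 and 9 cells, 402 and 1274. The unnamed cluster 5 had 150 and 213 CPM and held 18.6% of all Cxcl10 UMIs of the Control library and 4% of those of the Arg library.

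Cxcl16 was highest in mature dendritic cells, the migratory form marked by Ccr7 and Fscn1, with 581 CPM (530 to 634) in the Arg and 458 (405 to 516) in the Control library. Macrophages had 440 and 336 CPM, monocytes 343 and 177, cDC2 294 and 170 and cDC1 145 and 179. Within the Control library monocytes, cDC2 and cDC1 lay too close to be ordered within their intervals. Neutrophils had 69.5 and 51.4 CPM, fibroblasts 39.6 and 29.8, mast cells 33.4 and 23.8, B cells 30.2 and 10.3 and plasmacytoid dendritic cells 19.0 and 7.52. T and NK classes lay between 5.28 and 13.6 CPM, apart from gamma-delta T cells with 0 and 1 UMI. In CD8 T cells Cxcl16 per Lyz2 UMI was 0.0382 and 0.0548, in NK cells 0.0482 and 0.0520 and in regulatory T cells 0.0535 and 0.0376. Over all cells it was 0.0475 and 0.0433, so these low values cannot be told from free RNA.

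**Figure D1:**
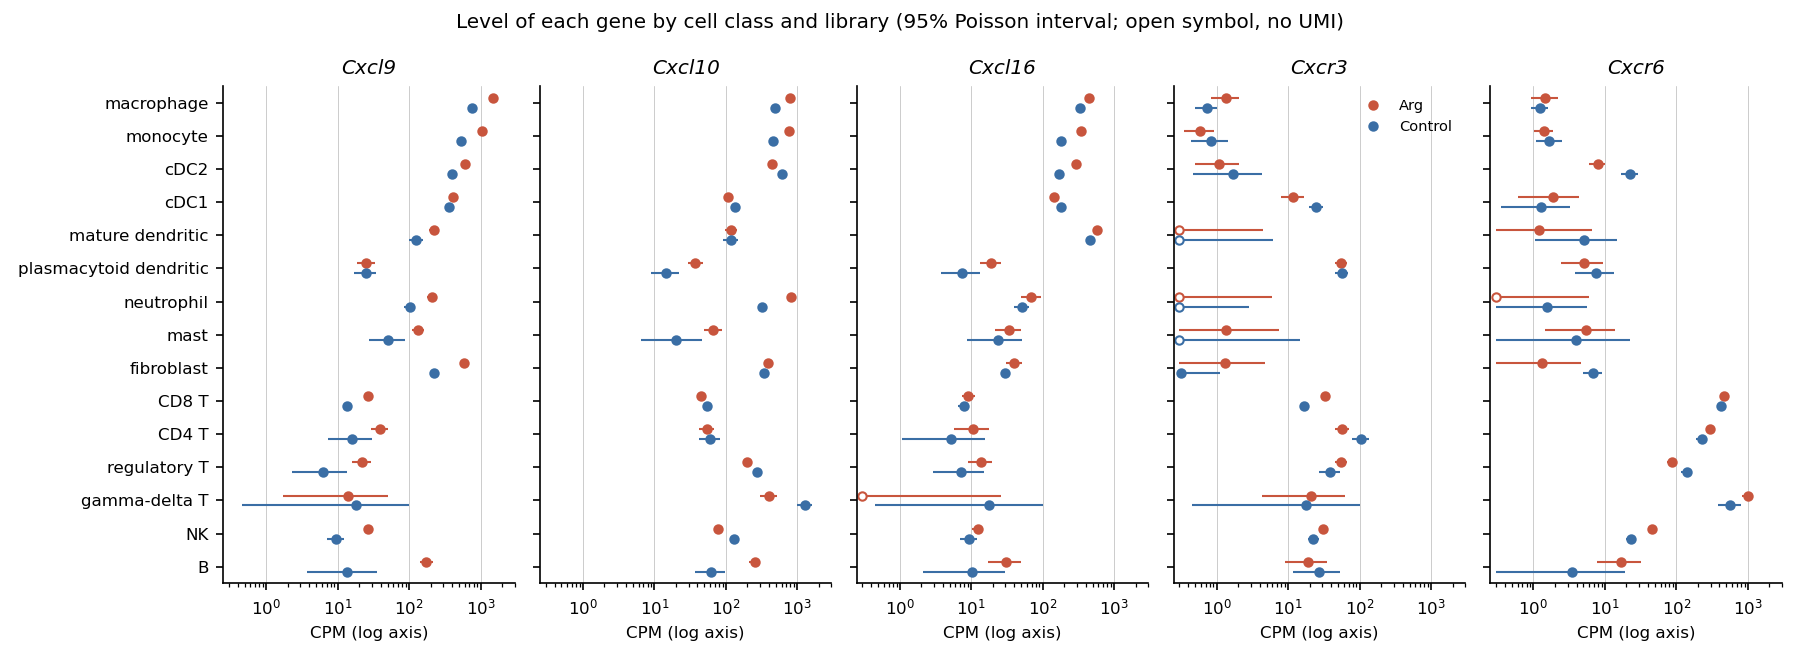
Level of each gene (CPM, log axis) in 15 cell classes of the Arg (red) and Control (blue) libraries, with 95% Poisson intervals as lines and open symbols where no UMI was found. Cxcl9 lies highest in macrophages and monocytes, Cxcl16 in mature dendritic cells and macrophages, Cxcl10 in neutrophils (Arg) and the 9 gamma-delta T cells (Control), Cxcr6 in T cells, and Cxcr3 in T cells, NK cells and plasmacytoid dendritic cells.

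Which cells held most of the chemokine RNA differed between the libraries. In the Control library macrophages held 64.5% of all Cxcl9 UMIs and monocytes 14.9%, whereas in the Arg library monocytes held 41.4% and macrophages 31.7%. For Cxcl16, macrophages held 61% in the Control library and 23.7% in the Arg library, and monocytes 10.5% and 34.7%. For Cxcl10, macrophages held 39.0% and 20.3%, and monocytes 11.9% and 36.3%. These shares multiply the level per class by the number of cells, and the Arg library held 1172 macrophages and 3395 monocytes against 2829 and 1676 in the Control library. These class sizes moved with the settings. At clustering resolution 0.5 the Arg library held 4268 macrophages and 3585 monocytes, and the Control library 5596 and 1590. At resolution 2 the numbers were 2365 and 3114, and 3286 and 1314. The shares were not recomputed there, so the order of macrophages and monocytes was read in the main clustering only. The unnamed cluster 1, led by Mmp13, Mmp12, Pf4 and Arg1, held 19.9% of Cxcl16 UMIs in the Arg and 8.42% in the Control library.

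**Figure D2:**
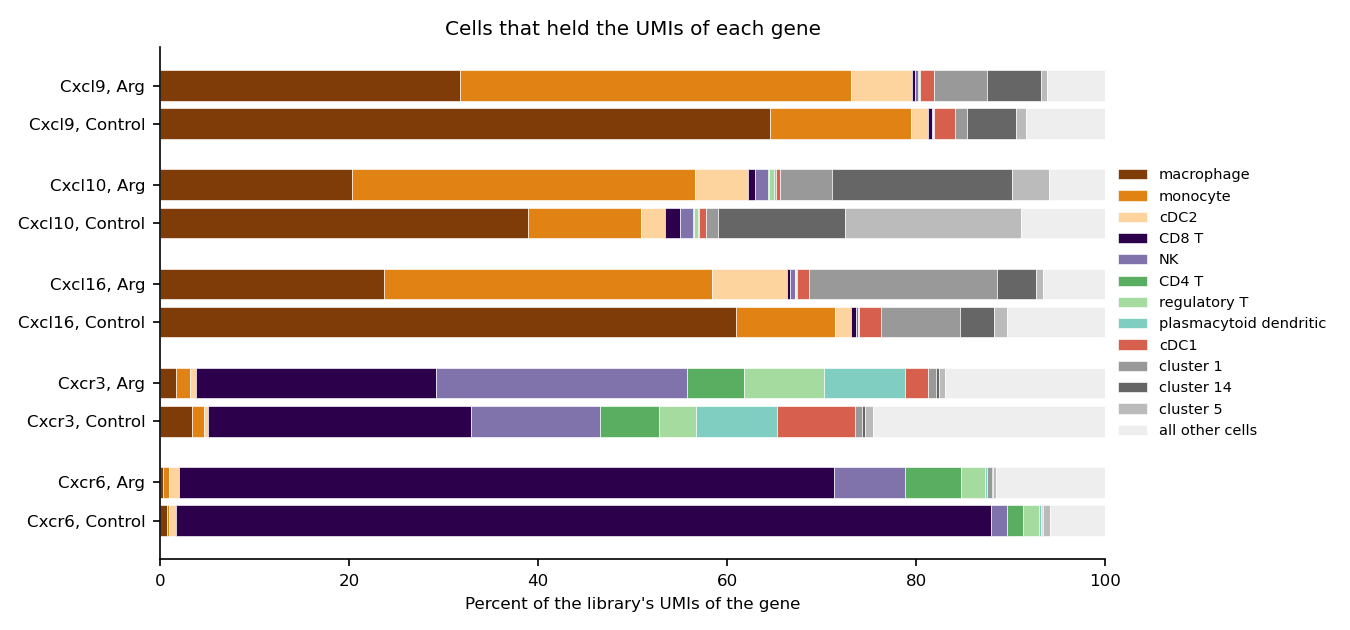
Percent of each library's UMIs of each gene (horizontal axis) held by named classes and by the unnamed clusters 1, 14 and 5, with all other cells in pale grey. For Cxcl9 the macrophage part is 31.7% in the Arg and 64.5% in the Control library, and for Cxcr6 the CD8 T part is 69.4% and 86.2%.

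The receptor genes were read in the other direction, in lymphocytes. Cxcr6 was highest in gamma-delta T cells, with 988 CPM in the Arg library (22 cells) and 556 in the Control library (9 cells). CD8 T cells had 463 (450 to 477) and 421 (411 to 431) CPM and CD4 T cells 290 and 225. Regulatory T cells had 86.1 and 139 CPM, NK cells 45.2 and 23.3 and cDC2 7.87 and 22.5. The order of T cell classes was the same in both libraries, and their intervals did not overlap between neighbours in the Arg library, while in the Control library gamma-delta T and CD8 T cells overlapped. Monocytes and macrophages had 1.22 to 1.67 CPM, and other classes were at or below 17.0 CPM.

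Cxcr3 was low in every class. CD4 T cells had 57.3 CPM in the Arg and 104 in the Control library, plasmacytoid dendritic cells 55.5 and 56.1, regulatory T cells 54.4 and 38.1, CD8 T cells 32.4 and 16.7 and NK cells 30.4 and 22.4. CD4 T, plasmacytoid dendritic and regulatory T cells could not be ordered in the Arg library. The cDC1 class had 11.6 and 24.9 CPM and B cells 18.9 and 27.4. Neutrophils and mature dendritic cells had no Cxcr3 UMI in either library, and a count of 0 allows up to 4.85 and 2.30 CPM in neutrophils (3 counts). Monocytes and macrophages had 0.584 to 1.34 CPM.

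To compare shares of cells with a UMI, every cell was first reduced by random draws to 2000 UMIs. In CD8 T cells 7.84% (6.30 to 9.61) of cells in the Arg library and 3.46% (2.62 to 4.47) in the Control library had a Cxcr3 UMI. In macrophages, which should lack the receptor, the shares were 0.362% and 0.255%. The median depths before thinning were 7441 and 8156 UMIs in CD8 T cells and 12994 and 14858 in macrophages, and without thinning 18.3% and 10.7% of CD8 T cells had a Cxcr3 UMI. For Cxcr6, 55.3% (52.3 to 58.3) and 52.5% (50.1 to 55.0) of CD8 T cells had a UMI, or 82.6% and 83.4% without thinning, against 0.181% and 0.146% of macrophages. Most CD8 T cells in both libraries therefore held Cxcr6 RNA, and the shares did not differ beyond their intervals.

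Receptor levels divided the CD8 T cells by cluster. Cluster L3, led by Gzmk, Ccl5 and Lef1, had 142 CPM of Cxcr3 in the Arg and 152 in the Control library. The other CD8 T clusters had far less Cxcr3: 17.3 and 7.16 CPM in L1 (Pdcd1, Rgs16), 6.21 and 12.6 in L2 (Nrn1, Ifng) and 4.84 and 5.72 in the cycling cluster L6. Cxcr6 did not follow Cxcr3 among these clusters: it was 349 and 281 CPM in L3, 658 and 544 in L1, 536 and 358 in L2 and 326 and 306 in L6, which was thus low in both receptor genes. Cluster L9, unnamed because its CD8 T and CD4 T scores were close, was led by Lef1 and Tcf7 and had 77.4 and 72.8 CPM of Cxcr3. Among NK clusters, L5 (Xcl1, Klrb1f) had the highest Cxcr3, 56.5 and 37.6 CPM, and the highest Cxcr6, 124 and 86.0 CPM, while L0 (Gzma, Itga2) had 12.5 and 7.26 CPM of Cxcr6.

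**Figure D3:**
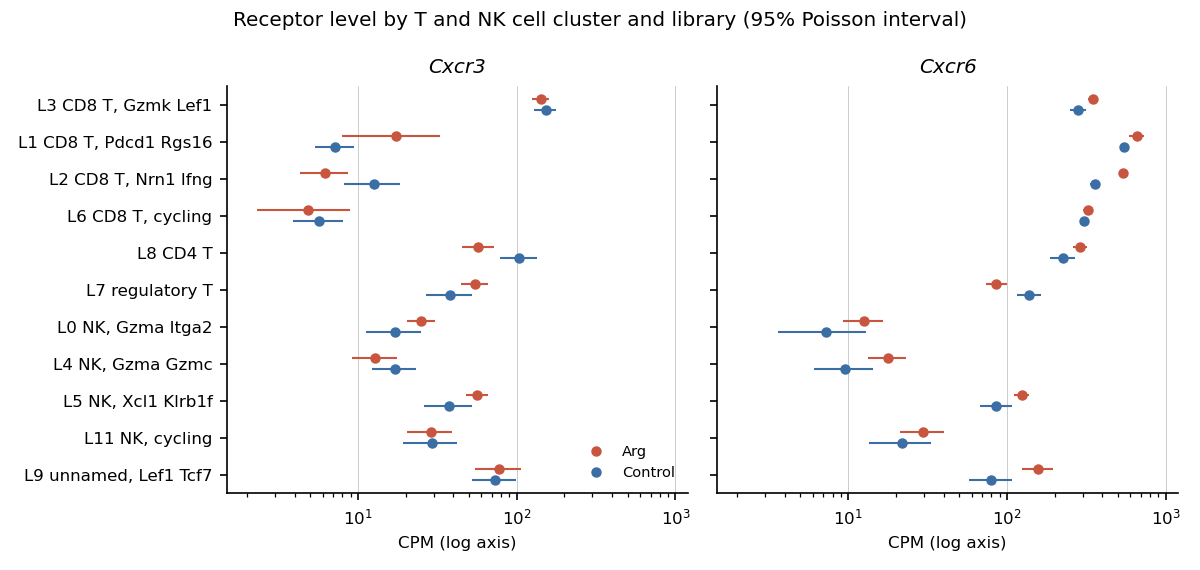
Level of Cxcr3 and Cxcr6 (CPM, log axis) in T and NK cell clusters of the Arg (red) and Control (blue) libraries, with 95% Poisson intervals as lines. Cluster L3 holds the CD8 T cells with high Cxcr3 (142 and 152 CPM), while L1, L2 and L6 lie at 4.84 to 17.3 CPM for Cxcr3 and 306 to 658 CPM for Cxcr6.

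Detection of both receptor genes in the same cell was then read. At 2000 UMIs per cell, Cxcr6 was found in 50% (38.9 to 61.1) of the 84 CD8 T cells with a Cxcr3 UMI in the Arg library and in 55.8% (52.6 to 58.9) of those without. In the Control library it was found in 41.1% (28.1 to 55.0) of 56 cells with Cxcr3 and in 52.9% (50.4 to 55.4) of those without. The intervals overlapped in both libraries, so no difference was detectable at this depth. Without thinning, the Control library gave 73.9% (66.7 to 80.2) and 84.5% (82.6 to 86.4), which did not overlap, and the Arg library 77.0% (70.6 to 82.6) and 83.9% (81.4 to 86.2), which did. In NK cells Cxcr6 was found in 13.6% (7.25 to 22.6) of 88 cells with Cxcr3 and 5.79% (4.58 to 7.20) of those without in the Arg library. The Control library had 31 NK cells with Cxcr3, 9.68% (2.04 to 25.8) of them with Cxcr6, against 3.65% (2.38 to 5.34) of those without.

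The chemokine genes were found together in the same myeloid cells. In macrophages of the Arg library, Cxcl10 was found in 48.8% (45.1 to 52.5) of cells with Cxcl9 and 24.2% (19.9 to 28.9) of cells without it. The Control library gave 36.2% (33.5 to 39.0) and 21.9% (19.9 to 24.1). Monocytes gave 42.4% and 22.4% in the Arg library and 32.0% and 14% in the Control library. Cxcl16 was found in 56.9% (53.3 to 60.6) of macrophages with Cxcl9 and 48.4% (43.2 to 53.6) of those without in the Arg library, and in 52.9% and 45.0% in the Control library. In both libraries a macrophage with a Cxcl9 UMI more often had a Cxcl10 UMI, beyond the counting intervals.

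The libraries were then compared class by class, to ask how the axis differed between tumours of the 2 diets. Ratios are Arg over Control, folds are ratios of CPM, and a gene was counted as past the fold where its log2 ratio, taken after adding 5 CPM to each value, reached 1.5-fold. Genes with a mean of at least 10 CPM in a class were counted, and 10 classes had at least 100 cells in both libraries. Cxcl9 was higher in the Arg library in 9 of 10 classes by its counting interval and past the fold in 7, of which 4 (CD8 T, NK, regulatory T and CD4 T) had Cxcl9 at a level that cannot be told from free RNA. Cxcl10 was higher in 4 classes and lower in 5, Cxcl16 higher in 4 of 8 and lower in 1, Cxcr3 higher in 2 of 6 and lower in 2, and Cxcr6 higher in 3 of 5 and lower in 2. The share of all genes whose interval excluded 1 was not computed, so these interval counts have no background to be read against. A ratio as small as 1.10 (Cxcr6 in CD8 T cells) was counted. Shares of all genes past the fold are given by class below.

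**Figure D4:**
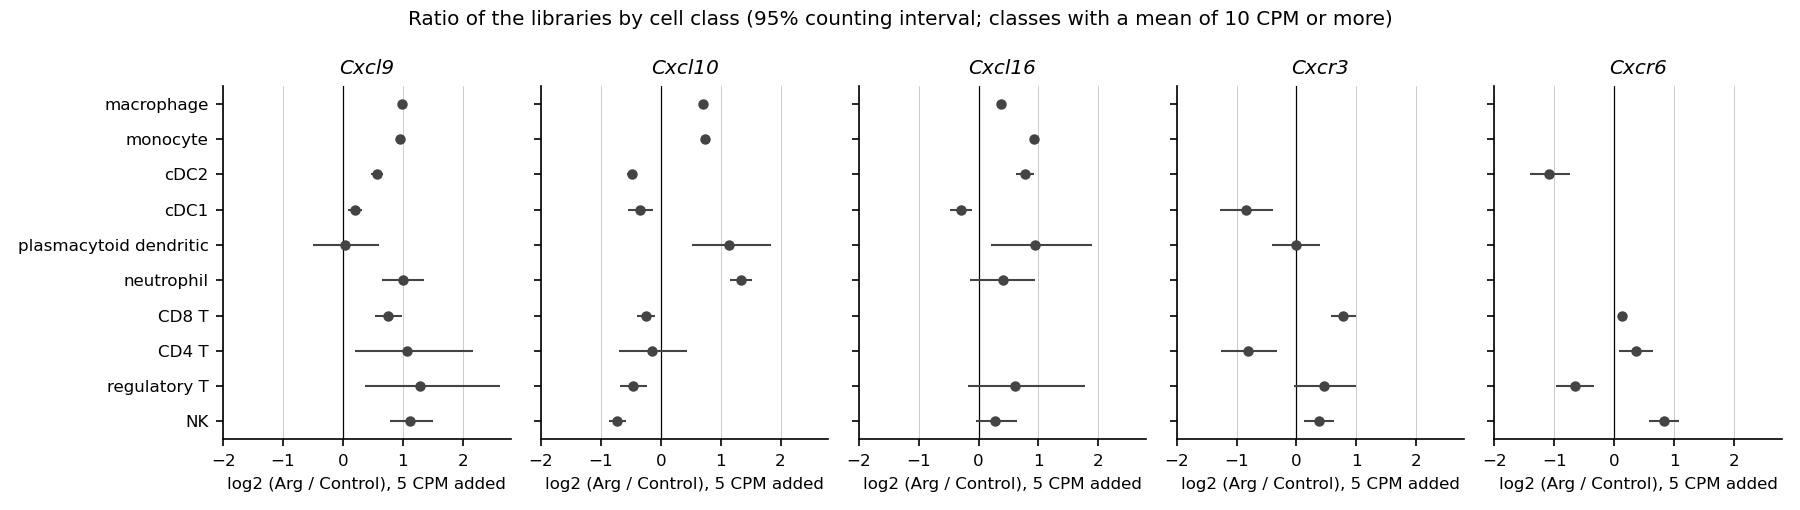
Log2 ratio of the Arg over the Control library for each gene in classes with at least 100 cells per library and a mean of 10 CPM or more, with 95% counting intervals as lines and 0 marking equal levels. All 10 Cxcl9 points lie above 0, whereas the Cxcl10 points lie above 0 in macrophages, monocytes, neutrophils and plasmacytoid dendritic cells and below 0 in the other 6 classes.

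In macrophages all 3 chemokine genes were higher in the Arg library. Cxcl9 was 1.99-fold higher (1.96 to 2.02), Cxcl10 1.64-fold (1.60 to 1.68) and Cxcl16 1.31-fold (1.27 to 1.34). Lyz2 was also higher in Arg macrophages, 10166 against 5676 CPM. Per Lyz2 UMI they had 0.147 and 0.133 of Cxcl9, 0.0780 and 0.0852 of Cxcl10 and 0.0433 and 0.0593 of Cxcl16. On that scale only Cxcl9 was higher in the Arg library. At 2000 UMIs per cell, 66.4% and 44.4% of macrophages had a Cxcl9 UMI, 40.5% and 28.3% a Cxcl10 UMI and 54.1% and 48.5% a Cxcl16 UMI. Without thinning the Cxcl16 shares were 89.7% and 92.0%, with the deeper Control cells higher. In CD8 T cells, whose Cxcl9 cannot be told from free RNA, the Cxcl9 shares were 5.78% and 2.29%. Past the fold were 2 of the 3 measured members, where 4.84% of 7763 genes were past it in that direction, and none was past it downward, where 2.15% were. The class was made of different clusters: cluster 12 (Apoe, Vcam1, Ccl8, Nos2) was 55.5% of the macrophages in the Arg and 8.77% in the Control library, where cluster 2 (Ch25h, C1qc) was 63.9%. Weighting the clusters to 1 common mix gave log2 ratios of 0.56 for Cxcl9, 0.72 for Cxcl10 and 0.20 for Cxcl16, against 0.99, 0.71 and 0.38 as found, so Cxcl9 was then not past the fold. Cxcl10 lost the call at clustering resolutions 0.5 (0.35) and 2 (0.40), with doublets kept (0.41), with a marker gate (0.52) and with unnamed clusters added (0.30), and Cxcl9 at resolution 0.5 (0.47) and with unnamed clusters added (0.51).

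Within clusters the ratio of the macrophage chemokines was uneven. Cxcl9 was 1187 and 695 CPM in cluster 2, a 1.71-fold difference, and 1065 and 711 in the cycling cluster 11. In cluster 12 it was 1933 and 1667 CPM, 1.16-fold. Cxcl10 in the same clusters was 1.95-fold, 1.66-fold and 1.10-fold higher in the Arg library. The cluster with the highest Cxcl9 in both libraries thus had the smallest difference between them. Cluster 1 (Mmp13, Mmp12), unnamed because 2 classes scored close, had low levels and a wide gap, with 240 and 76.7 CPM of Cxcl9 (3.13-fold) and 195 and 80.3 of Cxcl10 (2.43-fold). Cluster 7 (Lyve1, Folr2) had 133 and 62.0 CPM of Cxcl9 and 104 and 92.9 of Cxcl10.

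In monocytes all 3 chemokine genes were past the fold upward, where 1.99% of 7275 genes were (1.75% downward). Cxcl9 was 1.95-fold higher in the Arg library, Cxcl10 1.67-fold (1.62 to 1.72) and Cxcl16 1.93-fold (1.85 to 2.02). Cluster 0 (Ly6i, Tgfbi), which had the highest Cxcl9 of the monocyte clusters, was 60.0% of monocytes in the Arg and 40.2% in the Control library. At 1 common mix of clusters the log2 ratios were 0.48, 0.50 and 0.52, against 0.95, 0.73 and 0.93, so each kept its sign and none was past the fold. With the members kept in the clustering Cxcl10 (0.53) and Cxcl16 (0.41) also lost the call, and Cxcl10 further at resolutions 0.5 and 2 (0.48 in each), with doublets kept (0.41), with stricter cell filters (0.40) and with unnamed clusters added (0.33). In cluster 0 Cxcl9 was 1469 and 1099 CPM and Cxcl16 450 and 340. In cluster 9 (Adgre4, Ace), genes known from patrolling monocytes, Cxcl10 was 987 and 387 CPM and Cxcl9 350 and 131. In cluster 6 (Inhba, Thbs1, Vcan) Cxcl16 was 194 and 69.8 CPM, while Cxcl10 was 172 and 164 with overlapping intervals.

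Cluster 14, the interferon-stimulated cluster, stood near parity. Its Cxcl10 was 1.10-fold higher in the Arg library (1.07 to 1.13), its Cxcl9 was 996 and 898 CPM and its Cxcl16 288 and 293 CPM. At 2000 UMIs per cell 65.1% (60.7 to 69.4) and 69.1% (63.3 to 74.4) of its cells had a Cxcl10 UMI. It held 19.0% of Cxcl10 UMIs in the Arg and 13.5% in the Control library.

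**Figure D5:**
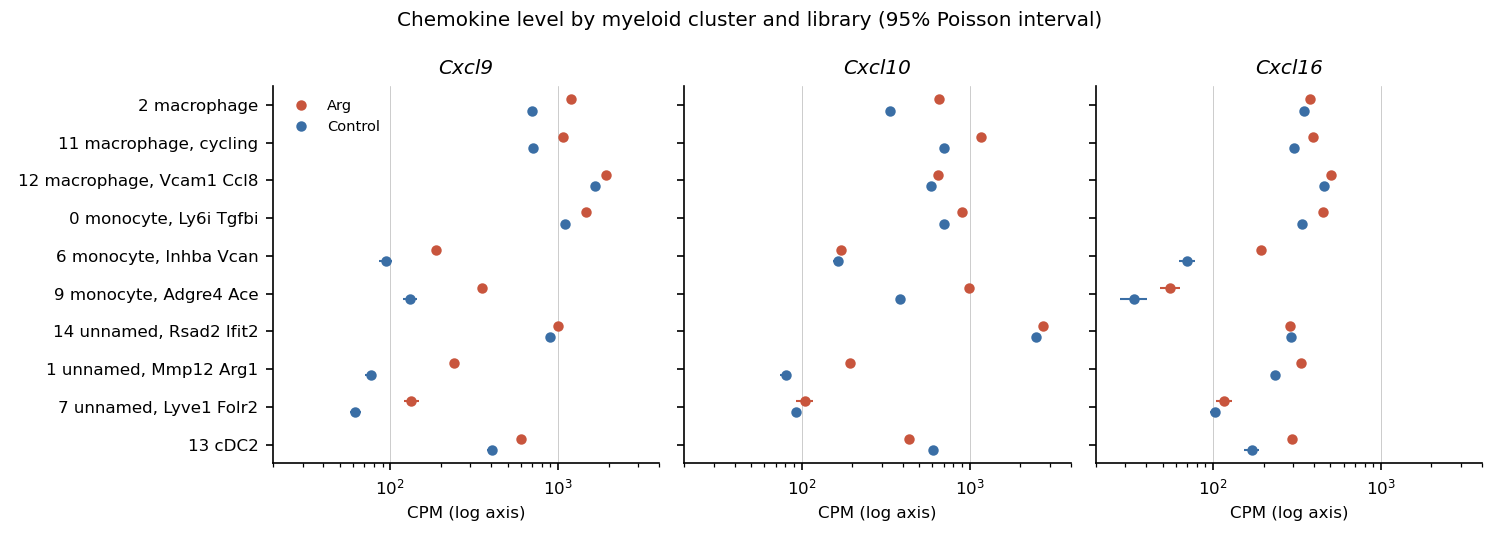
Level of each chemokine gene (CPM, log axis) in 10 myeloid clusters of the Arg (red) and Control (blue) libraries, with 95% Poisson intervals as lines where they exceed the symbol. Red lies right of blue for Cxcl9 in every cluster shown, by 3.13-fold in cluster 1 and 1.11-fold in cluster 14, and for Cxcl10 in every cluster but 13.

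The CPM of Cxcl10 was lower in the Arg library in some dendritic cell and lymphocyte classes. In cDC2 Cxcl9 was 1.49-fold higher in the Arg library (1.39 to 1.59) and Cxcl16 1.73-fold (1.56 to 1.93), whereas Cxcl10 was lower, 435 against 608 CPM, a ratio of 0.715 (0.672 to 0.761). Lyz2 was also higher in Arg cDC2, 2791 against 1557 CPM. Per Lyz2 UMI the class had 0.215 and 0.259 of Cxcl9 and 0.105 and 0.109 of Cxcl16, neither higher in the Arg library. In NK cells Cxcl10 was 0.591 of the Control level (0.535 to 0.652). By cluster the levels were 159 and 408 CPM in L5, 36.2 and 178 in the cycling L11, 23.5 and 42.3 in L4 and 72.6 and 71.3 in L0, so L0 did not share the difference. Regulatory T cells gave 0.721 (0.615 to 0.846), cDC1 0.782 and CD8 T cells 0.827 (0.736 to 0.928). Cxcl10 was past the fold downward in 1 of these 5 classes, NK cells, where 0.71% of 8030 genes were.

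These Cxcl10 differences were carried by few cells. In NK cells 80.6% of the Cxcl10 UMIs of the Arg library and 90.0% of those of the Control library came from the top 10% of cells. The share of NK cells with a Cxcl10 UMI at equal depth was 8.89% (7.44 to 10.5) and 10.1% (7.95 to 12.5), which did not differ beyond the intervals. In CD8 T cells the shares were 7.56% and 7.66%. In cDC2 (25.0% and 23.8%), regulatory T cells (20.7% and 17.9%) and cDC1 (12.2% and 5.49%) the share was higher where the CPM was lower, but with overlapping intervals. At 1000 UMIs per cell the share in regulatory T cells had the other order, 12.9% and 14.9%. A single Control cDC1 cell held 186 of 424 Cxcl10 UMIs. For cDC2, regulatory T cells and cDC1 no order of the libraries can be read.

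Markers of other cells were read beside these values. The summed level of 10 macrophage markers was 342 CPM in Arg and 398 in Control NK cells, 307 and 346 in CD8 T cells, 297 and 456 in regulatory T cells and 648 and 678 in cDC1, with all 10 markers found in each library. Lyz2 had the other order, with 256 and 179 CPM in NK cells and 239 and 145 in CD8 T cells. It was 254 and 191 CPM in regulatory T cells and 897 and 579 in cDC1. Of 9 monocyte markers the sums were 1875 and 2012 CPM in NK cells, and 1 marker was at 0 there in the Control library. In regulatory T cells they were 718 and 973 CPM, with 1 and 5 of 9 at 0. In cDC2 macrophage markers were 1257 and 864 CPM and monocyte markers 1635 and 2742, with 2 of 9 at 0 in the Control library. The part of such RNA in the Cxcl10 values, and in the Cxcl9 and Cxcl16 values of cDC2, was not tested.

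Neutrophil Cxcl10 was 2.56-fold higher in the Arg library (2.24 to 2.92) and Cxcl9 2.04-fold (1.59 to 2.62). Of 3 measured members 2 were past the fold, where 10.3% of 6430 genes were (12.4% downward), and 27.7% and 14.6% of the 2000-UMI cells had a Cxcl10 UMI. Neutrophils were shallow, with medians of 2220 and 2186.5 UMIs, and 90.3% and 93.5% of their Cxcl10 UMIs lay in the top 10% of cells. For Cxcl9 the top 10% held 81.5% and 98.5%, and 1 Control cell held 56 of 134 UMIs. Neutrophils also had 1249 and 1880 CPM summed over the 10 macrophage markers and 2363 and 3002 over the 9 monocyte markers. The part of such RNA in the neutrophil values was not tested. Plasmacytoid dendritic cells had 2.61-fold more Cxcl10 (1.59 to 4.47) and 2.53-fold more Cxcl16 (1.26 to 5.50) on 73 against 21 and 37 against 11 UMIs, while the Cxcl9 ratio was 1.02 with an interval that included 1 (0.652 to 1.62). Per Lyz2 UMI these cells had 0.0679 and 0.0540 of Cxcl10 and 0.0344 and 0.0283 of Cxcl16, below the values over all cells, and Lyz2 was itself 553 and 266 CPM, so these levels cannot be told from free RNA. These were 2 of 4 measured members, where 4.49% of 7976 genes were past the fold upward and 3.12% downward.

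The remaining classes gave smaller counts. In cDC2 1 of 4 measured members was past the fold upward and 1 downward, with 3.83% and 4.75% of 7460 genes. In regulatory T cells 2 of 5 were past it upward (Cxcl9 and Cxcl16) and 1 downward (Cxcr6), with 4.11% and 5.64% of 8170 genes. The upward pair cannot be told from free RNA there, although Cxcl16 per Lyz2 UMI was 0.0535 in the Arg library against 0.0475 over all cells. In CD4 T cells 1 of 4 was past it in each direction (Cxcl9 and Cxcr3), with 6.56% and 8.57% of 7973 genes. In cDC1 0 of 4 were past it upward and 1 downward (Cxcr3), with 2.77% and 3.29% of 7475 genes.

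For the receptors, Cxcr3 in CD8 T cells showed a difference that came with the mix of clusters. Its level was 32.4 and 16.7 CPM, 1.94-fold higher in the Arg library (1.64 to 2.29). Cluster L3, the CD8 T cluster with high Cxcr3, was 32.1% of CD8 T cells in the Arg and 10.4% in the Control library, and within it the ratio was 0.934 (0.764 to 1.15). At 1 common mix of clusters the levels were 24.6 and 24.8 CPM and the log2 ratio was -0.01, against 0.78 as found. In cluster L2 Cxcr3 was lower in the Arg library, 6.21 against 12.6 CPM on 34 and 26 UMIs, and in L1 it was 17.3 against 7.16 CPM on 9 and 52 UMIs. In CD8 T cells 2 of 4 measured members were past the fold upward, where 2.57% of 8003 genes were (2.86% downward). They were Cxcr3 and Cxcl9, and Cxcl9 cannot be told from free RNA there.

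Cxcr6 in CD8 T cells was close to equal, 463 and 421 CPM, a 1.10-fold difference (1.06 to 1.14). At 1 common mix of clusters it was 491 and 390 CPM, a log2 ratio of 0.33. The gap lay mainly in cluster L2, with 536 and 358 CPM (1.5-fold, 1.38 to 1.62), and the shares of its cells with Cxcr6 at equal depth were 62.3% (58.1 to 66.3) and 38.5% (32.2 to 45.1). Cluster L2 was 51.3% of CD8 T cells in the Arg and 14.1% in the Control library, where L1 was 54.7%. In L1 and L3 Cxcr6 was 1.21-fold and 1.24-fold higher in the Arg library, and in L6 1.07-fold with an interval that included 1.

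In NK cells both receptor genes were higher in the Arg library. Cxcr6 was 1.94-fold higher (1.60 to 2.36) and Cxcr3 1.36-fold (1.10 to 1.67), with shares of cells at equal depth of 6.29% and 3.91% for Cxcr6 and 6.36% and 4.33% for Cxcr3, with overlapping intervals for both genes. At 1000 UMIs per cell the Cxcr3 shares were 2.19% and 2.73%, in the other direction, so no order can be read from them. In the 4 NK clusters Cxcr6 was 1.35-fold to 1.85-fold higher, with intervals above 1 in L4 and L5. Cxcr6 and Cxcl9 were the 2 of 5 members past the fold upward, where 0.747% of 8030 genes were. At 1 common mix of clusters the log2 ratio of Cxcr6 was 0.51, not past the fold. NK cells had 476 and 435 CPM summed over the 7 CD8 T markers, and their part in these values was not tested.

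In CD4 T cells Cxcr3 was 0.552 of the Control level (0.388 to 0.788) and Cxcr6 1.29-fold higher (1.05 to 1.59). In regulatory T cells Cxcr6 was 0.620 of the Control level (0.492 to 0.783) and Cxcr3 1.43-fold, with an interval that included 1. These values rest on 77 and 59 Cxcr3 UMIs in CD4 T cells and 171 and 135 Cxcr6 UMIs in regulatory T cells. The shares at equal depth had overlapping intervals in each case: 12.7% and 18.3% of CD4 T cells with Cxcr3, and 9.76% and 12.7% of regulatory T cells with Cxcr6. The lower Cxcr6 of Arg cDC2, 7.87 against 22.5 CPM, came with lower T cell markers in that class: the 7 CD8 T markers summed to 109 and 340 CPM, and their part in the result was not tested.

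Genes that act before and after the axis were read from lists in macrophages for the ligand side and CD8 T cells for the receptor side. Of 20 inducers of the ligands and their signalling genes, 19 were measured in macrophages and all 19 were above 0. Of these, 3 were past the fold upward, where 4.84% of 7763 genes were. The median log2 ratio was 0.26, against -0.0025 over all genes. Socs1, a feedback inhibitor of interferon signalling, was 156 and 52.8 CPM (2.95-fold), Irf1, an interferon-induced transcription factor, 353 and 179 (1.97-fold), and Jak2, a kinase of the interferon-gamma receptor, 54.1 and 33.0 (1.64-fold). The kinase gene Jak2 and the inhibitor gene Socs1 were thus both higher in Arg macrophages. These are class sums over clusters whose mix differed as given above, and the lists were not weighted to a common mix. In monocytes 13 of 19 were above 0, with a median of 0.09 against 0.05 over all genes. Past the fold were 2 upward and 2 downward, where 1.99% and 1.75% of 7275 genes were. Socs1 and Irf1 were higher and Ifngr1 and Nfkbia lower (a set named after its values were seen).

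In macrophages and monocytes no other measured CXC chemokine was past the fold upward with Cxcl9. Neutrophils differed, with Cxcl3 past it upward (3858 and 2034 CPM) and Cxcl1 downward (79.2 and 127). There 10.3% of 6430 genes were past it upward and 12.4% downward. Of 6 measured in macrophages none was past the fold upward and 3 were past it downward, where 2.15% of all genes were. Cxcl14 was 19.7 and 134 CPM, Cxcl1, which draws neutrophils, 77.2 and 146, and Cxcl13, which draws B cells, 15.8 and 26.7. In monocytes 5 of 6 were past the fold downward, where 1.75% of all genes were, with a median of -1.23 against 0.05 over all genes. These are class sums, not weighted to a common mix of clusters. The 3 measured in CD8 T cells were Cxcl1 (7.93 and 14.3 CPM), Cxcl2 (78.7 and 66.2) and Pf4 (39.4 and 37.9), none past the fold.

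Adam10 and Adam17, the proteases that release CXCL16, differed little. Macrophages had 105 and 104 CPM of Adam10 and 250 and 217 of Adam17, and monocytes 96.5 and 118 and 232 and 227. CD8 T cells had 125 and 119 CPM of Adam10, 137 and 103 of Adam17 and, of Dpp4, which trims CXCL9 and CXCL10, 115 and 88.3. None of the measured genes of the list (2 of 3 in macrophages, 3 of 3 in CD8 T cells) was past the fold. Receptor signalling genes were also near equal, with 0 of 6 past the fold in macrophages or CD8 T cells. Dock2, which moves lymphocytes towards chemokines, was 807 and 605 CPM in CD8 T cells (1.33-fold), and Rac2 209 and 262 in macrophages. Arrb2, which encodes an arrestin that ends receptor signalling, was 155 and 176 CPM in macrophages and 52.2 and 55.9 in CD8 T cells.

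On the receptor side, 13 of 18 measured inducer genes were above 0 in CD8 T cells. Of these, 1 was past the fold upward, where 2.57% of 8003 genes were: Tnf, with 59.2 and 30.4 CPM, while Irf1 was 249 and 177. Ifng, the main inducer of Cxcl9, was 671 and 497 CPM in CD8 T cells (1.35-fold, 1.31 to 1.40) and 114 and 112 in NK cells (1.02-fold, interval including 1). Ifng leads cluster L2, whose share of CD8 T cells differed as given above. Among 8 measured receptor regulators and residency genes in CD8 T cells, 1 was past the fold, downward, where 2.86% of all genes were. It was Klf2, a factor of circulating T cells, with 163 and 255 CPM. Klf2 was lower in the Arg library also in NK, CD4 T and regulatory T cells, monocytes, macrophages, neutrophils, cDC1 and cDC2. The difference was thus not particular to CD8 T cells. Tbx21, which encodes the factor T-bet that drives Cxcr3, was 192 and 215 CPM, Runx3 428 and 592 and Eomes 36.4 and 26.7. These are class sums that were not compared within clusters, and their relation to Cxcr3 was not tested. In macrophages Klf2 was 306 and 996 CPM, Bhlhe40 58.2 and 26.2 and Id2 616 and 366, all 3 past the fold. Of all genes in macrophages 4.84% were past it upward and 2.15% downward. Cxcr4, the only other CXC receptor measured in both classes, was 59.7 and 32.4 CPM in CD8 T cells (past the fold) and 88.9 and 66.3 in macrophages.

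The genes whose pattern over the classes was most like each member were found by Pearson's r over 20 values (10 classes in each library), which share their libraries and depth, among 6087 genes. Cxcl9 and Cxcl16 were each other's closest, with r of 0.98. Aif1, a gene of macrophages, and Myof were among the closest 5 of both, and Slamf8 and Cd40 completed the Cxcl9 set. Anxa4 and Pnp completed the Cxcl16 set. Cxcl10 stood apart from the pair: its closest were Metrnl and the glycolysis gene Pkm, with r of 0.92, then Pgam1, Glrx and the interferon-induced Zbp1, with r of 0.89 to 0.87. Cxcr6 followed the T cell genes Cd3g (0.98), Trbc2, Themis and Trac, after the unnamed gene Gm20139 (0.98). Cxcr3 followed Zfp62 (0.96), Kat6b, Zfp280d, Slc35e2 and Gatad2b.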

How the data were processed

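Single-cell RNA was measured in 2 libraries with 10x 3′ v3 chemistry. The deposited matrices hold raw UMI counts per gene and barcode, and the per-file headers name Cell Ranger 7.0.1 while the submitters' processing notes name 2.2.2; the build is GRCm38, and the intron setting was not stated. Kept barcodes had 200 or more genes, 500 or more UMIs and a mitochondrial share of up to 10%, and Scrublet (expected rate 8%) removed 884 (6.37%) Arg and 687 (5.09%) Control barcodes. Cells were clustered with scanpy 1.11.5 (2000 variable genes, 30 components, 20 neighbours, resolution 1), leaving out the members. T, NK and dendritic cells were clustered again. Clusters were named from 22 marker sets, and 3816 and 4223 cells stayed unnamed. The naming thresholds and the repeat clustering were set after clusters had been seen.

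Raw counts were summed per class and library and given as CPM with exact Poisson intervals, which count every UMI as independent, so they understate the error where a few cells hold most UMIs. Shares carry exact Clopper-Pearson intervals after thinning to 2000 UMIs, which left out 858 Arg and 942 Control cells. Log2 ratios add 5 CPM. With 1 library per group no p-value was computed. On simulated macrophage counts for 7744 genes, 91% of 200 changed genes were recovered. The planted changes were larger than the 1.5-fold call and the counts had Poisson error only. Variation between cells or animals was therefore not covered. edgeR 4.0.16 gave the TMM alternative, and no count model was fitted. Named genes are the members, for each member the 5 genes closest by r (at least 50 CPM in 1 value), and from each pathway list the 3 measured genes with the largest log2 ratio in macrophages and CD8 T cells, plus Ifng, Irf1, Adam10, Adam17 and Tbx21 (1 further gene of this rule is not reported here); other genes were named after their values were seen. Members and lists were chosen with earlier results of these data known. The common mix of clusters and the addition of unnamed clusters were chosen after seeing the data.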

Additional observations from a re-analysis of the deposited data

Results flagged for a closer look

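In several classes a member differed between the libraries in the direction opposite to that in a reference class, with counting intervals on either side of equality. The difference between classes was not tested, since each diet had 1 library. Against a log2 ratio (Arg over Control) of 0.71 in macrophages, Cxcl10 was at -0.25 in CD8 T cells, -0.72 in NK cells, -0.48 in cDC2, -0.46 in regulatory T cells and -0.34 in cDC1. In cDC2, regulatory T cells and cDC1 the share of cells with Cxcl10 was higher in the Arg library, and 1 Control cDC1 cell held 186 of 424 UMIs, so no order of the libraries can be read there. Against 0.38 in macrophages, Cxcl16 was at -0.30 in cDC1. Against 0.78 in CD8 T cells, Cxcr3 was at -0.81 in CD4 T cells and -0.85 in cDC1. At a common mix of clusters the CD8 T value was -0.0091, so the opposite direction holds only for the class sums as found. Against 0.14 in CD8 T cells, Cxcr6 was at -1.10 in cDC2 and -0.66 in regulatory T cells.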

How the results depend on the processing

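The log2 ratios (Arg over Control) of 10 gene and class pairs were recomputed 106 times under other settings: 52 stayed within the counting interval, 53 moved beyond it and 1 reversed; where no construction shows it, the cause was not tested. For Cxcl9 in macrophages (0.99) the values were 0.47 at resolution 0.5, 0.60 with doublets kept, 1.02 with stricter cell filters, 0.96 with none, 0.94 with TMM, 0.56 at a common mix of clusters and 0.51 with unnamed clusters added. For Cxcl9 in monocytes (0.95) they were 0.64 with the members kept in the clustering, 0.78 at resolution 0.5, 0.89 with TMM, 1.63 with a marker gate, 0.48 at a common mix and 0.79 with unnamed clusters. Cxcl10 in macrophages (0.71) was 0.67 with members kept, 0.35 and 0.40 at resolutions 0.5 and 2, 0.41 with doublets, 0.66 and 0.65 with stricter and no filters, 0.67 with TMM, 0.52 with the gate and 0.30 with unnamed clusters. Cxcl10 in monocytes (0.73) was, in the same order, 0.53, 0.48 and 0.48, 0.41, 0.40 with stricter filters, 0.67, 0.81, 0.50 at a common mix and 0.33. Cxcl16 in macrophages (0.38) was 0.33 and 0.50 at the resolutions, 0.28 with doublets, 0.43 and 0.44 with stricter and no filters, 0.34 with TMM, 0.62 with the gate and 0.20 at a common mix. Cxcl16 in monocytes (0.93) was 0.41 with members kept, 0.84 and 1.04 at the resolutions, 1.15 with doublets, 1.04 and 0.86 with stricter and no filters, 0.87 with TMM, 1.57 with the gate, 0.52 at a common mix and 0.75 with unnamed clusters. Cxcr3 in CD8 T cells (0.78) was 0.15 at resolution 0.5 and reversed to -0.0091 at a common mix. Cxcr6 was 0.33 at a common mix in CD8 T cells (0.14), and 0.48 with members kept and 0.51 at a common mix in NK cells (0.83). Cxcr3 in NK cells (0.37) stayed between 0.23 and 0.43. Among 66 other recomputed values, some changed sign. Without thinning, the log2 ratio of the share of cells was -0.038 for Cxcl16 in macrophages and -0.013 for Cxcr6 in CD8 T cells, and co-detection of Cxcr6 with Cxcr3 in Control regulatory T cells went from -5.53 to 10.6 percentage points. At 1000 UMIs the Cxcr3 share in NK cells gave -0.32. Without the filter on low values the list median was -0.033 for other CXC receptors in macrophages, and for receptor regulators it was 0.17 in macrophages (-0.06) and 0.14 in CD8 T cells (-0.01). No paired analysis was possible because each group has 1 library.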
